A study of Bos taurus with 24 samples.

Results

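The MAP kinase phosphatases and the Sprouty feedback genes were examined in cultured bovine dermal fibroblasts, which build the connective tissue of skin, before and after exposure to lipopolysaccharide (LPS). LPS forms the outer surface of Gram-negative bacteria. The members were taken by gene symbol from a list of 10 genes, of which 9 had a row among the 27550 rows with a symbol: DUSP1, DUSP4, DUSP5, DUSP6, DUSP10, SPRY1, SPRY2, SPRY4 and SPRED2. DUSP8 was not analysed here. Polyadenylated RNA was sequenced from the fibroblasts of 4 Angus (beef) and 4 Holstein (dairy) heifers, all of the same age, with 1 culture per animal. Every culture was sampled at 0 h, 2 h and 8 h after addition of LPS at 100 ng/ml, which gave 24 samples in 6 groups of 4: Angus 0 h, Angus 2 h, Angus 8 h, Holstein 0 h, Holstein 2 h and Holstein 8 h. Cells of both breeds had been frozen, thawed together and grown in the same serum-containing medium, and lysates of duplicate wells were pooled. The 0 h samples were the only controls, so time in culture and exposure to LPS cannot be told apart.

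Extracellular signals, including growth factors and bacterial products, reach the nucleus partly through MAP kinases (ERK, JNK and p38), which are active while phosphorylated. The dual-specificity phosphatases (DUSPs) remove these phosphates, and Sprouty and Spred proteins restrain the steps between growth factor receptors and ERK. Many of these genes are themselves switched on by the pathways they restrain, and so are known as negative feedback genes.

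Each library held 51014538 to 104406293 counts, and a count of 3 corresponded to 0.0287 to 0.0588 CPM (counts in a library scaled to 1000000). Levels are given as CPM after correction for library composition by the trimmed mean of M-values (TMM). They were compared between samples and not between genes, since a row covers a whole gene span, introns included. All 9 fibroblast markers were present in every library, at a summed level of 39090 to 126600 CPM, whereas 5 leukocyte markers summed to 1.69 to 4.93 CPM. Keratins KRT5, KRT14 and KRT17 summed to 17.3 to 22.6 CPM in the 3 libraries of Holstein animal 1 and to at most 0.883 CPM elsewhere. In 4 libraries, 3 of them at 0 h (animal 4 of Angus and animals 2 and 4 of Holstein) and 1 at 2 h (animal 3 of Angus), the count of the collagen gene COL1A1 rested on fewer covered bases per count. Results of the members that cross the threshold or the FDR limit without these libraries, called the COL1A1 libraries, are given with and without them. The members' own covered bases per count were close in all libraries, for DUSP6 91.3 to 97.7 in these 4 and 89.0 to 91.6 in the others. In such bulk samples, fewer cells of a type and less RNA per cell cannot be told apart.

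To ask which members responded early, 2 h was compared with 0 h with both breeds combined. Past the threshold were 4 members: DUSP5, DUSP6 and SPRY4 rose, and SPRY1 fell. The threshold required a false discovery rate (FDR) under 0.05, a change of 2-fold or more and an average level over 1 CPM. These were 4 of the 8 members that passed the filter on low levels, against 2.82% of all 20157 rows tested. The log2 fold change was 3.65 ± 0.378 (SE; FDR = 2.14e-16, edgeR likelihood-ratio test) for DUSP5, 1.78 ± 0.350 (FDR = 1.32e-05) for DUSP6, 1.26 ± 0.264 (FDR = 3.4e-05) for SPRY4 and -1.69 ± 0.221 (FDR = 3.82e-12) for SPRY1. At 8 h edgeR called 0 of the 8 members tested relative to 0 h, against 1.42% of all rows. The unadjusted p was under 0.05 for 3 of the 8 members at 8 h, and for 5026 of all 20368 rows. Both edgeR's quasi-likelihood test and DESeq2 likewise called 0 members. The comparisons at 2 h and 8 h share their 0 h samples.

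**Figure D1:**
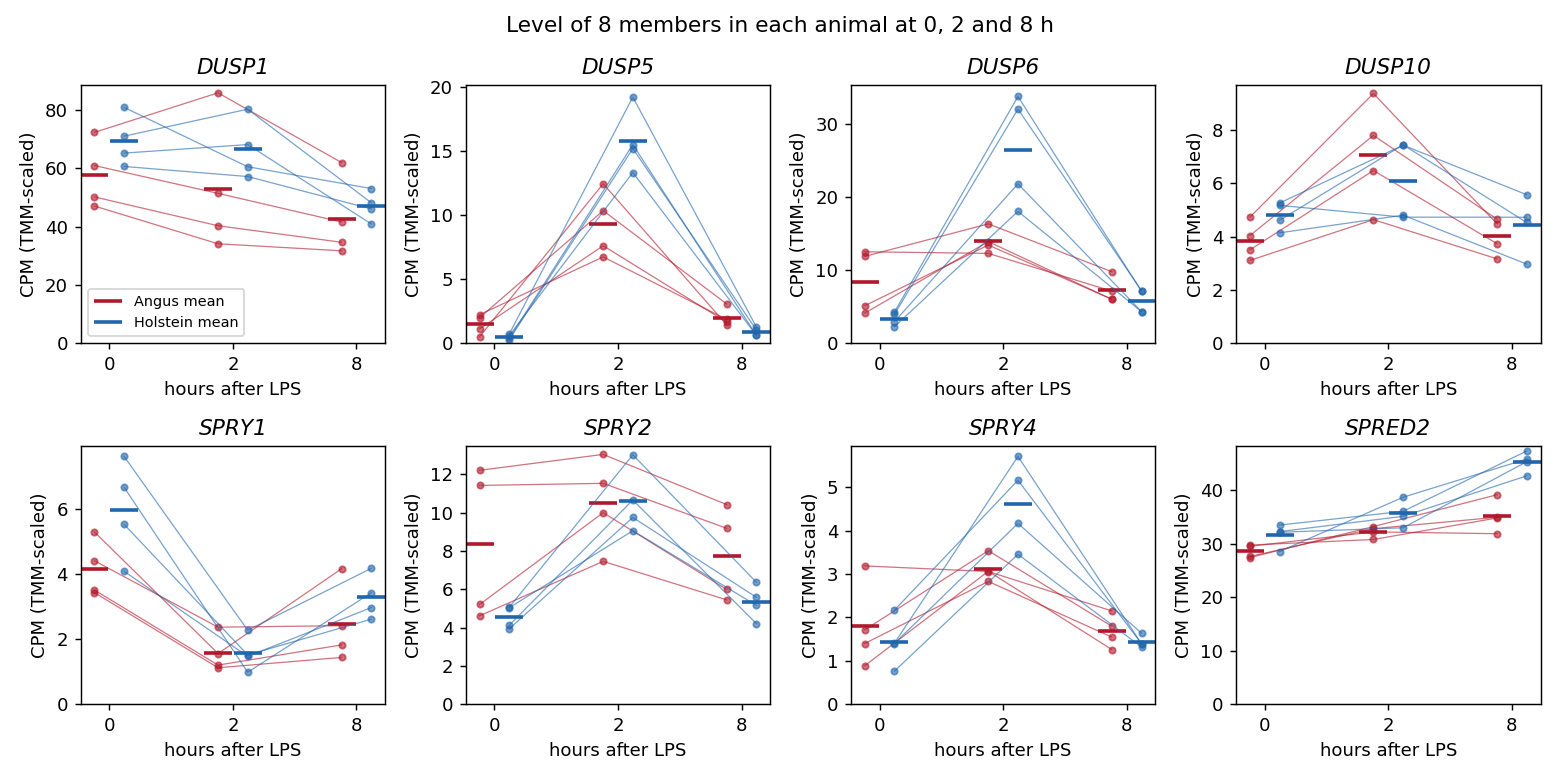
Level of 8 members (y axes, CPM, each with its own scale from 0) at 0, 2 and 8 h after LPS (x axes). Points are animals joined by lines and wide bars are means of 4 animals, with Angus in red and Holstein in blue. DUSP5 and DUSP6 peaked at 2 h, most steeply in Holstein, and SPRY1 was lowest at 2 h in the mean of either breed.

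DUSP5, a nuclear phosphatase that acts on ERK (chromosome 26, 31326750 to 31339518, plus strand, UMD v3.1), had the largest change at 2 h among the members tested. In Holstein cultures its level at 0 h was 0.299, 0.393, 0.618 and 0.745 CPM in animals 1 to 4. At 2 h it was 15.2, 15.5, 13.3 and 19.2 CPM, and at 8 h it was 1.05, 0.627, 0.635 and 1.29 CPM. The 2 h values lay far above both other hours. At 8 h the Holstein cultures were at 1.03 to 3.53 times their own starting level. That difference was not tested, since DUSP5 was under the filter for Holstein 8 h against 0 h. The rise at 2 h was 4.95 ± 0.246 on the log2 scale (FDR = 8.26e-74) and the drop from 2 h to 8 h was -4.12 ± 0.242 (FDR = 3.08e-51). In Angus cultures DUSP5 was at 2.02, 1.14, 0.525 and 2.24 CPM at 0 h. It reached 10.4, 7.62, 12.5 and 6.75 CPM at 2 h and was back at 3.07, 1.65, 1.44 and 1.87 CPM at 8 h. The Angus hours 0 and 8 overlapped, and the 2 h values exceeded both. The Angus rise at 2 h was 2.66 ± 0.424 (FDR = 1.98e-07) and the drop to 8 h was -2.20 ± 0.307 (FDR = 6.76e-10).

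DUSP6, a cytoplasmic phosphatase that also acts on ERK (chromosome 5, 19276348 to 19280028, minus strand), followed the same time course in Holstein cultures. It was at 4.29, 2.29, 2.98 and 3.99 CPM at 0 h, at 33.8, 18.1, 21.9 and 32.1 CPM at 2 h, and at 7.13, 4.37, 4.36 and 7.25 CPM at 8 h. The 3 hours did not overlap, though the highest value at 0 h (4.29 CPM) lay just under the lowest at 8 h (4.36 CPM). The share of all rows with hours separated in this way was not counted, here or for the other members. The rise at 2 h was 2.97 ± 0.258 (FDR = 1.16e-24) and the drop by 8 h was -2.20 ± 0.258 (FDR = 2.22e-14). The residual difference between 8 h and 0 h in Holstein, 0.78 ± 0.270, was under the FDR limit (FDR = 0.0315) but short of a 2-fold change, and without the COL1A1 libraries it was 0.69 (FDR = 0.235). In Angus cultures the starting levels of DUSP6 were unequal, with 11.9, 5.17, 4.16 and 12.6 CPM in animals 1 to 4. At 2 h they were 16.4, 13.5, 14.0 and 12.3 CPM, and at 8 h 9.83, 6.06, 6.04 and 7.17 CPM. Animals 1 and 4 thus began near the level that all Angus animals had at 2 h, and animals 2 and 3 began well under it. The coefficient of variation across Angus animals was 52.1% at 0 h and 12.1% at 2 h. The Angus difference at 2 h, 0.74 ± 0.362, was not past the threshold (FDR = 0.193), and the difference of -0.94 ± 0.203 between 8 h and 2 h (FDR = 0.00014) was 1.92-fold. It crossed 2-fold without Angus animal 1 (-1.03) and without Angus animal 4 (-1.002).

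No other phosphatase passed the threshold in any comparison. DUSP1, which acts on p38, JNK and ERK in the nucleus (chromosome 20, 4449106 to 4452189, minus strand), stood at 57.7 ± 11.4 CPM (SD, n = 4) in Angus and 69.5 ± 8.73 CPM in Holstein at 0 h. At 2 h its means were 53.0 ± 23.1 and 66.6 ± 10.2 CPM, within the spread at 0 h. At 8 h it was lower than at 0 h in 8 of 8 animals, as were 15.0% of all rows, at 0.628 to 0.857 of the starting level. The log2 difference of -0.50 ± 0.146 with both breeds (FDR = 0.00825) did not reach 2-fold. DUSP10, which acts on JNK and p38 (chromosome 16, 25895748 to 25936856, minus strand), was higher at 2 h than at 0 h in 7 of 8 animals. Its log2 difference was 0.89 ± 0.263 in Angus (FDR = 0.00877) and 0.34 ± 0.206 in Holstein (FDR = 0.303), both short of 2-fold. Without the COL1A1 libraries the Angus difference was 0.83 (FDR = 0.0597), and with both breeds it went from 0.61 (FDR = 0.00375) to 0.54 (FDR = 0.0831). DUSP4, a nuclear phosphatase (chromosome 27, 24814794 to 24828585, minus strand), had 0 to 18 counts per library, at most 0.179 CPM. It was under the filter in every comparison and was not tested.

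The Sprouty genes went in opposite directions. SPRY4 (chromosome 7, 55222500 to 55234079, minus strand) rose at 2 h in Holstein from 1.40, 1.40, 0.761 and 2.17 CPM to 5.71, 4.17, 3.45 and 5.16 CPM, and was at 1.39, 1.64, 1.32 and 1.40 CPM at 8 h. All 2 h values were above those of the other hours. Its log2 fold change in Holstein was 1.70 ± 0.314 at 2 h (FDR = 3.24e-06) and -1.69 ± 0.212 from 2 h to 8 h (FDR = 3.15e-13). In Angus SPRY4 was at 1.71, 1.40, 0.886 and 3.19 CPM at 0 h and at 3.54, 2.83, 3.06 and 3.06 CPM at 2 h. Animal 4 alone did not increase. The Angus difference, 0.80 ± 0.361, was not past the threshold (FDR = 0.137), but it was 1.25 (FDR = 0.00139) without animal 4 and 1.24 (FDR = 0.00127) without the COL1A1 libraries. From 2 h to 8 h the Angus difference was -0.88 ± 0.219 (FDR = 0.00127), and it passed without animal 4 (-1.04). SPRY2 (chromosome 12, 55683998 to 55685894, minus strand) rose at 2 h in Holstein, by 1.23 ± 0.169 on the log2 scale (FDR = 3.86e-11), from 5.06, 4.12, 3.94 and 5.04 CPM to 13.0, 10.7, 9.75 and 9.06 CPM. In Angus it was at 12.2, 4.62, 5.21 and 11.4 CPM at 0 h and at 13.0, 7.46, 10.0 and 11.5 CPM at 2 h. Here again animals 1 and 4 began high, and the Angus difference of 0.33 ± 0.357 was not past the threshold (FDR = 0.684). From 2 h to 8 h the Holstein difference of SPRY2 was 1.99-fold (-0.995 ± 0.176, FDR = 4.91e-07), and it crossed 2-fold without Holstein animal 3 or animal 4.

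SPRY1 (chromosome 17, 34749102 to 34751318, minus strand) fell at 2 h in both breeds. In Holstein it went from 7.63, 4.09, 5.54 and 6.68 CPM to 2.28, 1.47, 1.52 and 0.986 CPM, a log2 fold change of -1.94 ± 0.289 (FDR = 2.79e-09). In Angus it went from 3.44, 4.42, 5.31 and 3.52 CPM to 1.12, 2.37, 1.56 and 1.21 CPM, a log2 fold change of -1.40 ± 0.287 (FDR = 4.4e-05). The values at 0 h and 2 h did not overlap in either breed. It then recovered in part in Holstein, to 4.19, 2.98, 2.62 and 3.43 CPM at 8 h, 1.08 ± 0.274 above 2 h on the log2 scale (FDR = 0.000875). That rise was 0.90, under the 2-fold limit, without Holstein animal 4. In Angus the 8 h values were 1.44, 2.42, 4.17 and 1.83 CPM, and the difference from 2 h, 0.67 ± 0.388, was not past the threshold (FDR = 0.316). At 8 h SPRY1 was under its 0 h level in 8 of 8 animals (-0.81 ± 0.235, FDR = 0.00844), short of 2-fold.

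SPRED2, a Sprouty-related inhibitor of RAF activation (chromosome 11, 63637080 to 63760835, minus strand), varied little between animals and had no peak at 2 h. Its level was 28.6 ± 1.23, 32.3 ± 1.06 and 35.2 ± 3.00 CPM (SD, n = 4) at 0, 2 and 8 h in Angus and 31.6 ± 2.13, 35.7 ± 2.37 and 45.3 ± 1.94 CPM in Holstein. It was above its starting level in 8 of 8 animals at both later hours, as were 17.1% of all rows at 2 h and 12.6% at 8 h. The log2 difference at 8 h with both breeds was 0.42 ± 0.097 (FDR = 0.00034), under 2-fold.

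Within Holstein, 5 of 8 members tested were past the threshold at 2 h, against 3.17% of all rows. DUSP5, DUSP6, SPRY2 and SPRY4 rose and SPRY1 fell. From 2 h to 8 h, 4 of 8 were past the threshold in Holstein (3.92%). Within Angus, 2 of 8 were past it at 2 h (DUSP5 up and SPRY1 down, against 2.99%) and 1 of 8, DUSP5, from 2 h to 8 h (2.37%). In the Holstein fit of 2 h against 0 h, DUSP5 passed the filter only through its 2 h values. At 0 h it was at 0.299 to 0.745 CPM there, so its entry into that count was not independent of its rise. At 8 h relative to 0 h, edgeR called 0 of 7 members in Holstein (2.52% of all rows) and 0 of 8 in Angus (0.863%). The unadjusted p was under 0.05 for 4 and 2 of them, against 5080 of 20489 rows in Holstein and 2776 of 20617 in Angus. The quasi-likelihood test and DESeq2 called 0 members in both. Passing the threshold in Holstein alone does not show that the breeds differed, so the difference in response was tested itself.

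The change at 2 h differed between the breeds for 2 of 8 members tested, DUSP5 and DUSP6, against 0.278% of all rows. The interaction term (Holstein change minus Angus change) was 2.302 ± 0.531 on the log2 scale for DUSP5 (FDR = 0.00708) and 2.24 ± 0.470 for DUSP6 (FDR = 0.00174), with the larger rise in Holstein for both. Within each animal, DUSP6 at 2 h was 7.89, 7.91, 7.34 and 8.05 times its 0 h level in Holstein and 1.37, 2.61, 3.36 and 0.982 times in Angus. The Holstein animals were nearly alike and lay above every Angus animal. For DUSP5 the Holstein ratios were 50.9, 39.4, 21.6 and 25.8, and those of Angus 5.13, 6.66, 23.7 and 3.01. Angus animal 3, which had the lowest 0 h level among the Angus animals, was thus inside the Holstein range. On the log2(CPM + 1) scale the changes of the breeds did not overlap for either gene, as for 9.59% of all rows, but for DUSP5 without the added 1 CPM they did. With edgeR's quasi-likelihood test neither interaction was past the threshold (FDR = 0.15 for DUSP5 and 0.0884 for DUSP6), and with DESeq2 both were (FDR = 0.00249 and 0.000557). With the animal as a block and the F test, DUSP6 passed (FDR = 0.0153) and DUSP5 did not (FDR = 0.0684).

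Single animals weighed on the DUSP5 interaction. It was no longer past the threshold without Angus animal 1 (2.17, FDR = 0.07), Angus animal 4 (1.89, FDR = 0.134), Holstein animal 1 (2.13, FDR = 0.0931) or Holstein animal 2 (2.20, FDR = 0.0839). The DUSP6 interaction passed with any 1 animal left out, with an FDR of 0.0496 or lower, but not without the 4 COL1A1 libraries (1.87, FDR = 0.126). DUSP5 passed without those libraries (2.34, FDR = 0.0444). For SPRY2 and SPRY4 the interaction was 0.90 ± 0.409 (FDR = 0.952) and 0.90 ± 0.493 (FDR = 1), with 95% intervals of 0.10 to 1.71 and -0.065 to 1.87. With the animal as a block the SPRY2 interaction was 0.80 (FDR = 0.0226), under the FDR limit but short of 2-fold. With the block and the F test it was 0.81 (FDR = 0.0963). The SPRY4 interaction with the block was 0.82 (FDR = 0.268). At 8 h the interaction was past the threshold for 0 of 8 members (0.0982% of all rows). The unadjusted p was under 0.05 for 1 of them, DUSP6, against 597 of 20368 rows, and the other tools called 0 members.

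**Figure D2:**
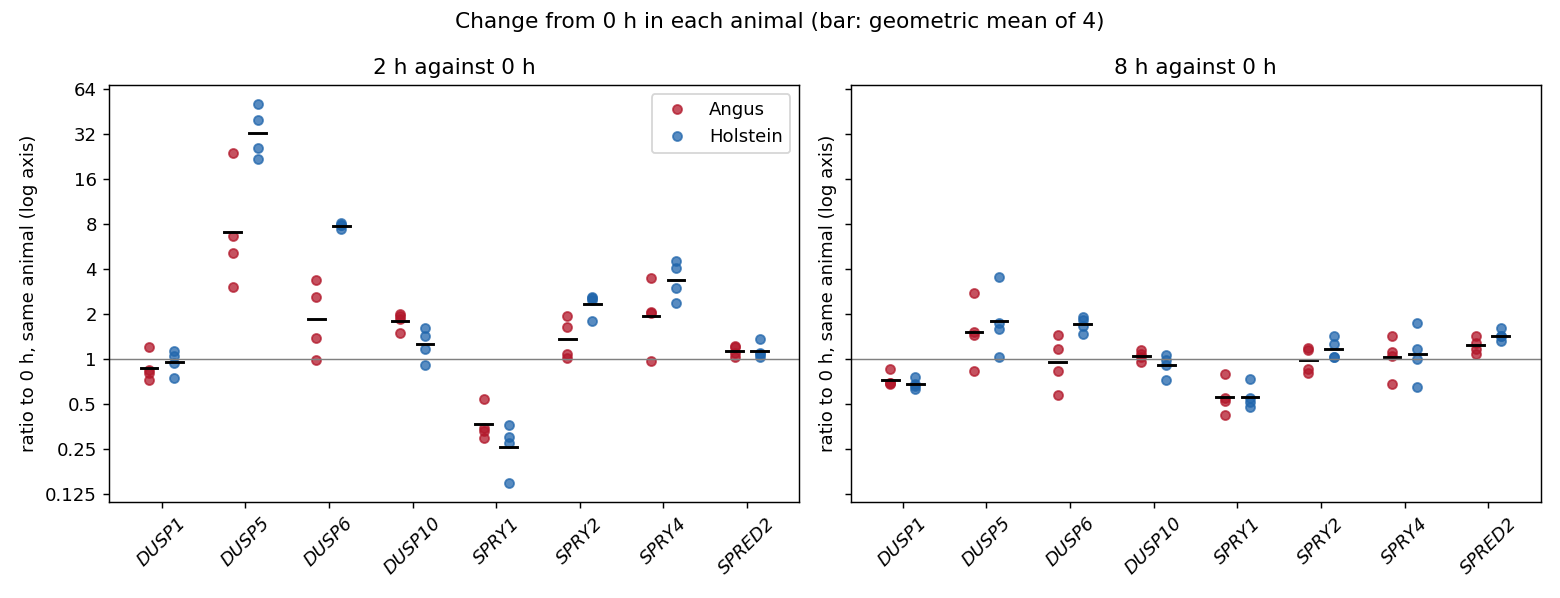
Ratio of CPM at 2 h (left) and 8 h (right) to 0 h in the same animal (y axis, log scale), for Angus (red) and Holstein (blue). Points are animals and black bars are geometric means of 4. At 2 h the Holstein ratios of DUSP6 lie between 7.34 and 8.05, above the Angus ratios of 0.982 to 3.36.

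To ask whether resting and stimulated levels differed, Holstein was compared with Angus at each hour. At 0 h, 1 of 7 members tested was past the threshold (3.83% of all rows): DUSP6 was lower in Holstein, by -1.31 ± 0.390 on the log2 scale (FDR = 0.0119), although the breeds overlapped. This difference was not past the threshold with the quasi-likelihood test (FDR = 0.0646) or without Angus animal 1, Angus animal 4, Holstein animal 2 or Holstein animal 3. Without the 4 COL1A1 libraries it was -0.97 (FDR = 0.471). SPRY2 had a difference of -0.87 ± 0.336 (FDR = 0.0639), which became -1.08 (FDR = 0.00879) without Angus animal 2 and -1.05 (FDR = 0.00993) without Angus animal 3. DUSP5 was under the filter at 0 h. Its mean was 0.514 ± 0.204 CPM in Holstein and 1.48 ± 0.794 CPM in Angus (SD, n = 4), with p = 0.0857 in a two-sided exact permutation test. The breeds overlapped for DUSP5 at 0 h.

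At 2 h the order of the means was turned for DUSP5 and DUSP6, with every Holstein animal above every Angus animal, a separation that 12.7% of all rows had in that direction. The differences of 0.76 ± 0.223 (FDR = 0.00694) and 0.91 ± 0.217 (FDR = 0.000682) were under the FDR limit but not 2-fold. Without Holstein animal 2 the DUSP6 difference was 1.06, past the threshold. The difference for SPRY4 was 0.57 ± 0.209 (FDR = 0.0387), and 0.56 (FDR = 0.0566) without the 1 COL1A1 library at 2 h, that of Angus animal 3. The threshold was thus passed by 0 of 8 members with edgeR, against 4.46% of all rows. The unadjusted p was under 0.05 for 3 members, against 6470 of 20184 rows, and the quasi-likelihood test and DESeq2 called 0 members. At 8 h, 1 of 8 members was past the threshold (3.25% of all rows): DUSP5 was lower in Holstein, by -1.14 ± 0.338 (FDR = 0.00966), with no overlap between the breeds (9.66% of all rows in that direction). Its difference was -0.86 (FDR = 0.0541) without Angus animal 1 and had an FDR of 0.0526 without Holstein animal 2. SPRED2 was higher in every Holstein animal than in any Angus animal at 8 h, at 42.7 to 47.3 against 31.9 to 39.2 CPM, as were 10.8% of all rows. The log2 difference, 0.37 ± 0.101 (FDR = 0.00455), was under 2-fold. For DUSP10 and SPRY1 the breeds overlapped at every hour, and no difference was under the FDR limit. DUSP1 likewise overlapped at every hour with all animals, with a difference at 2 h of 0.33 (FDR = 0.436). That overlap at 2 h rested on Angus animal 3, whose COL1A1 library held 85.9 CPM of DUSP1. The other Angus animals reached at most 51.5 CPM, and the Holstein animals began at 57.2 CPM. Without that library DUSP1 was higher in Holstein at 2 h by 0.67 (FDR = 0.00235), short of 2-fold. Angus animal 3 also had the highest Angus level of DUSP1 at 0 h (72.4 CPM) and 8 h (62.0 CPM), in libraries outside the COL1A1 set. The fit thus left out an animal whose DUSP1 was high among Angus at every hour.

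**Figure D3:**
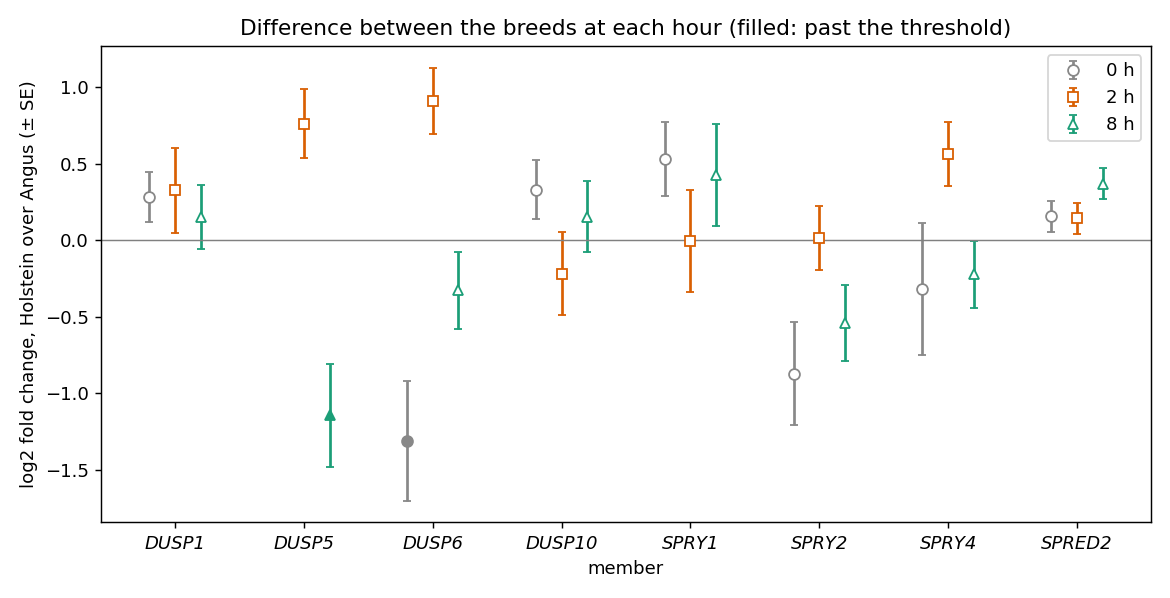
Log2 fold change of Holstein over Angus (y axis, with SE) for each member (x axis) at 0 h (circles), 2 h (squares) and 8 h (triangles), with filled symbols for differences past the threshold. DUSP5 was not tested at 0 h. DUSP6 went from -1.31 at 0 h to 0.91 at 2 h, and DUSP5 was at 0.76 at 2 h and -1.14 at 8 h.

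The order of the group means showed the same turn. For DUSP5 the groups ranked Holstein 2 h, Angus 2 h, Angus 8 h, Angus 0 h, Holstein 8 h and Holstein 0 h. Neighbouring groups in this order overlapped except at the steps below Holstein 2 h and Angus 2 h. For DUSP6 the order was Holstein 2 h, Angus 2 h, Angus 0 h, Angus 8 h, Holstein 8 h and Holstein 0 h. Holstein 2 h stood clear of the next group and Holstein 0 h of the one before it, while the groups between them overlapped with their neighbours. SPRY2 and SPRY4 followed the DUSP6 order, with every neighbouring pair overlapping. SPRY1 began with Holstein 0 h and Angus 0 h and ended with both 2 h groups, also with overlap at every step.

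DUSP5, DUSP6, SPRY2 and SPRY4 varied together across samples. Over the 24 samples, Pearson's r of log2(CPM + 1) was 0.77 to 0.935 for the 6 pairs of these genes and -0.809 to 0.566 for the other 22 pairs of members. All 4 rose past the threshold at 2 h in Holstein, so shared group means enter these r. After the mean of each group was removed, the 6 pairs had r of 0.551 to 0.756, highest for DUSP5 with DUSP6. The other 22 pairs then had r of -0.416 to 0.652, so the 2 ranges overlapped. These samples came from only 8 animals and share libraries across genes, so the correlations are descriptions. SPRY1 ran opposite to these genes over the samples, with r of -0.809 with DUSP5, -0.737 with DUSP6, -0.71 with SPRY2 and -0.697 with SPRY4. After group means were removed these r were weaker, at -0.416, -0.128, -0.368 and -0.278 in the same order. SPRY1 and DUSP1 had r = 0.419 over the samples and 0.652 after group means were removed.

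**Figure D4:**
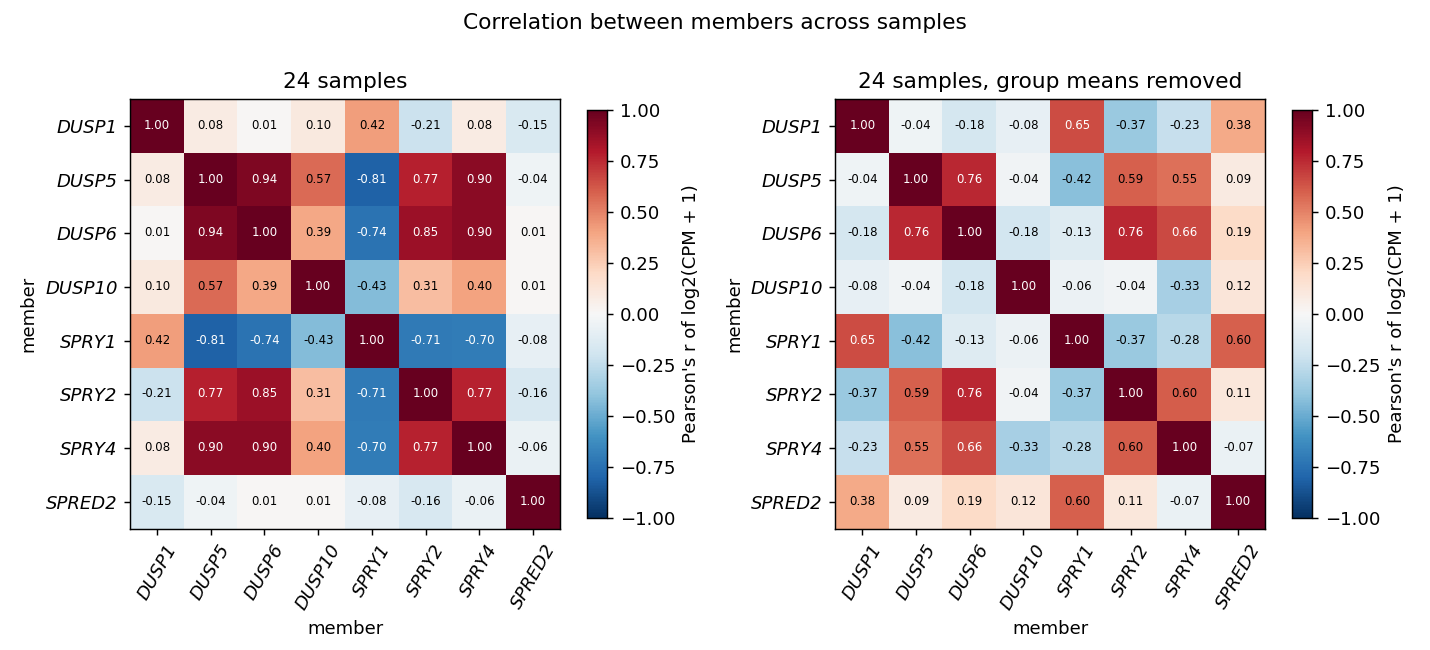
Pearson's r of log2(CPM + 1) between 8 members (both axes) over 24 samples (left) and after group means were removed (right), with red for positive and blue for negative values. DUSP5, DUSP6, SPRY2 and SPRY4 form a block of 0.77 to 0.935 on the left and 0.551 to 0.756 on the right. Other pairs reach 0.566 on the left and 0.652 on the right.

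Among other genes with a symbol, the patterns most like DUSP5 were those of PAPD7 (r = 0.971 over 24 samples), TNFRSF1B (0.963) and CTSW (0.959). PAPD7 was also the most alike for DUSP6 (0.926) and SPRY4 (0.925), and DUSP6 was followed by ERRFI1 (0.916), an inhibitor of the EGF receptor. The pattern of SPRY2 was most like that of WDR45L (0.911), that of SPRY1 like LOC539015 (0.898), that of DUSP1 like CCDC112 (0.901), that of SPRED2 like STRA6 (0.925) and that of DUSP10 like LRRC32 (0.778).

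Intervals without a gene symbol that adjoin a member were also examined, in the same libraries. The interval that ends at the base before DUSP6, on its downstream side (chromosome 5, 19133518 to 19276347), was at 1.26 ± 0.531, 9.14 ± 2.49 and 1.97 ± 0.557 CPM (SD, n = 4) at 0, 2 and 8 h in Holstein. In Angus it was at 2.78 ± 1.29, 4.74 ± 0.881 and 2.53 ± 0.594 CPM. Its interaction at 2 h was 2.10 ± 0.492 (FDR = 0.00938) and its difference at 0 h was -1.14 (FDR = 0.0458), lower in Holstein. In alternatives chosen after seeing the data, neither was past the threshold with the quasi-likelihood test (FDR = 0.156 and 0.0975) or without the COL1A1 libraries (2.04, FDR = 0.0852, and -1.09, FDR = 0.375). With DESeq2 both were (FDR = 0.00388 and 0.0321). With 1 of the 8 animals left out in turn, the interaction passed in 5 of 8 fits and the 0 h difference in 3 of 8. The animals without which the interaction did not pass were Angus animal 4 (FDR = 0.151), Holstein animal 1 (FDR = 0.117) and Holstein animal 3 (FDR = 0.0906). The 0 h difference did not pass without Angus animals 1 or 4 (FDR = 0.207 and 0.146) or Holstein animals 1, 2 or 3 (FDR = 0.103, 0.145 and 0.131). The interval downstream of SPRY4 (chromosome 7, 55095561 to 55222499) rose at 2 h in Holstein by 1.82 on the log2 scale and dropped from 2 h to 8 h, with a log2 fold change of -1.66. Both passed with the quasi-likelihood test and with any 1 Holstein animal left out. No tested interval beside another member was past the threshold in any comparison. None beside DUSP5 was tested, some members had a single side tested, and some intervals were tested in part of the comparisons only. The count does not use strand, so these reads cannot be assigned to a transcript. The intervals are therefore no separate evidence for the member beside them.

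To place the members in their pathway, related genes were counted by list. The kinases and adaptors between growth factor receptors and ERK (16 genes, all tested) had none past the threshold in any of the 13 comparisons with edgeR, and 0 to 6 of them had an unadjusted p under 0.05. Over all rows, 597 of 20368 to 6697 of 20533 had such a p, depending on the comparison. A share of 0.0982% to 4.46% was past the threshold, so a count of 0 in a list this small does not set it apart. MAP3K8, a kinase that activates MEK and thereby ERK as well as the other branches, was listed with JNK and p38. It rose at 2 h with the breeds combined, by 2.39 ± 0.410, and within Holstein, by 2.70 ± 0.204. Within Angus it was not past the threshold, with levels of 1.80 to 19.1 CPM at 2 h. A count of 0 in every comparison was likewise found for 2 other MAP kinase phosphatases, DUSP7 and DUSP16 (0 to 2 at an unadjusted p under 0.05), and for SPRED1 (0 to 1). Other tools were not run on these lists. Among 13 other inhibitors of RAS and ERK signalling, 3 were past the threshold at 2 h with both breeds, against 2.82% of all rows. ERRFI1 and RASA2 (a RAS GTPase-activating protein) rose by 2.13 ± 0.257 and 1.00 ± 0.114. LRIG3, a membrane protein that modulates growth factor receptors, fell by 1.86 ± 0.237 on the log2 scale. The list's median was 0.03, against -0.004 over all rows.

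Of 12 transcripts known to follow ERK activity, 5 rose and 1 fell at 2 h with both breeds, against 2.82% of all rows past the threshold in either direction. The list's median was 0.65, against -0.004 over all rows. The 4 largest changes were IER3 at 2.69 ± 0.276, FOSL1 at 2.12 ± 0.378, EPHA2 at 1.50 ± 0.135 and MAFF at 1.41 ± 0.190. FOS, an immediate early gene, fell, with -1.13 ± 0.213. At 8 h against 0 h with both breeds, 3 of the 12 rose and 2 fell, against 1.42% of all rows. The risers were IER3 (1.24 ± 0.170), MAFF (1.125 ± 0.202) and PHLDA1 (1.06 ± 0.183). EGR1, which had the largest change of the list at 8 h, fell by 1.865 ± 0.336 on the log2 scale, and FOS by 1.05 ± 0.227. FOSL1, a subunit of the AP-1 transcription factor, was the one listed transcript with an interaction past the threshold at 2 h (1.81 ± 0.442, FDR = 0.0141). In alternatives chosen after seeing the data, that interaction was not past it with the quasi-likelihood test (FDR = 0.189) or without the COL1A1 libraries (1.39, FDR = 0.185). It passed with DESeq2 (FDR = 0.00714) and with the animal as a block (FDR = 0.00235). With the block and the F test it did not (FDR = 0.0653). With 1 of the 8 animals left out in turn it passed in 2 fits, those without Angus animal 2 or Angus animal 3. Like DUSP6, FOSL1 was lower in Holstein at 0 h (-1.92 ± 0.380, FDR = 9.18e-05), at 14.3 ± 2.89 CPM against 54.2 ± 30.7 CPM in Angus. This difference passed with the quasi-likelihood test (FDR = 0.0327) and with DESeq2 (FDR = 5.82e-06). It passed with each animal left out in turn but not without the COL1A1 libraries (-1.44, FDR = 0.0548). At 2 h its ranges of 119.7 to 156.6 CPM in Holstein and 118.7 to 178.2 CPM in Angus overlapped, whereas those of DUSP6 did not.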

How the data were processed

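The authors filtered reads on a median quality of 20, up to 3 uncalled bases and a length of 25 bases, and aligned them to UMD v3.1 with NextGENe 2.3.4 after base calling with CASAVA 1.7. They deposited raw read counts per gene span or gene-free interval and a coverage signal (average counts), used here only to compare how reads were counted. Members and lists were chosen with earlier results of these data known. Library totals were taken over all 59846 rows. Only rows at 1 CPM or more in at least 50% of the samples compared entered each main fit. They were tested with edgeR 4.0.16 (R 4.3.3) by a likelihood-ratio test with TMM scaling and Benjamini-Hochberg adjustment, without an animal block. The scripts were tested on simulated data. Hours were paired by animal number in the labels: after group means were removed, samples of 1 animal correlated across rows with a mean r of 0.661 (0 h and 2 h) and 0.62 (0 h and 8 h), against -0.219 and -0.206 for different animals. The fit with the animal block changed no call of a member under the likelihood-ratio test. All 36 pairs of replicates differed beyond sampling noise, with a chi-square of 33.0 to 461.2 per degree of freedom. All members were named, with the 3 genes most alike by r for each (or the first of these). Of the lists, genes past the threshold were named for some comparisons only, at most 4 each by size. FOS and the 8 h values of the ERK transcripts were added after their values were seen. Calls left undescribed include LRIG3 (-1.17), IER3 (1.16), MAPK12 (1.14) and TGFA (-1.01) for Holstein against Angus at 2 h.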

Additional observations from a re-analysis of the deposited data

Results flagged for a closer look

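The response of DUSP5 to LPS at 2 h differed between the breeds by an interaction of 2.302 on the log2 scale, with the larger rise in Holstein. The response of DUSP6 differed likewise, by 2.239. Both come from a test of the difference itself, and the values by animal and by tool stand in the report. In none of the 54 groups of 4 samples examined (9 members in 6 groups) did 1 sample stand apart from the rest by Dixon's test.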

How the results depend on the processing

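With the FDR limit alone and no fold limit, the members called numbered 3 for 8 h against 0 h with both breeds, 4 for Holstein 8 h against 0 h, 7 for Holstein 8 h against 2 h, 4 for Angus 8 h against 2 h, 3 for Holstein against Angus at 2 h and 2 at 8 h. The share of all rows under this looser rule is not given here, so these counts do not set the members apart. For scale, the unadjusted p was under 0.05 for 5026 of 20368 rows at 8 h against 0 h with both breeds. For Holstein 8 h against 2 h it was so for 6697 of 20533 rows. For Holstein against Angus at 0 h, the count of 1 became 0 with the quasi-likelihood test, 2 with no CPM filter (DUSP5 was added) and 0 without the 4 COL1A1 libraries. For the interaction at 2 h, the count of 2 became 0 with the quasi-likelihood test, 1 with the animal as a replicate block and the F test, and 1 without the 4 COL1A1 libraries; with the replicate block and the likelihood-ratio test it was 2. With each animal left out in turn, the counts ranged from 1 to 3 for Angus 8 h against 2 h, 0 to 2 for Holstein against Angus at 0 h, 0 to 1 at 2 h, 0 to 1 at 8 h and 1 to 2 for the interaction at 2 h. The cause was not tested beyond what each alternative changes by construction. No called value reversed under any alternative run. DUSP4, at most 0.179 CPM, was under the filter on low levels, and with no CPM filter it was past the threshold in 0 of 13 comparisons. The 4 animals per breed and no untreated culture at 2 h or 8 h limit all comparisons.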

Other observations

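Of 14 receptors and ligands of the EGF, FGF and PDGF families, 11 were tested at 2 h with both breeds, and HBEGF, a ligand of the EGF receptor, was the 1 gene past the threshold, against 2.82% of all rows. Its level in Holstein was 0.327 ± 0.0853 CPM (SD, n = 4) at 0 h, 5.33 ± 1.90 CPM at 2 h and 0.247 ± 0.0505 CPM at 8 h. In Angus it was 0.772 ± 0.312, 4.05 ± 2.06 and 0.454 ± 0.315 CPM. The rise at 2 h was 4.02 ± 0.332 on the log2 scale in Holstein and 2.40 ± 0.432 in Angus, and its interaction was not past the threshold. In Holstein HBEGF was at 0.221 to 0.423 CPM at 0 h and passed the filter only through its 2 h values. At 8 h with both breeds, FGF7 rose by 1.04 ± 0.170 and FGFR3 fell by 1.36 ± 0.350.

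Of 16 kinases and adaptors listed with the JNK and p38 branches, 2 rose at 2 h with both breeds, against 2.82% of all rows: MAP3K8 (2.39 ± 0.410), which also acts on MEK and ERK, and MAP2K3 (1.28 ± 0.087), which activates p38. Within Angus alone MAP2K3 was past the threshold at 2 h and MAP3K8 was not. MAPK11, which encodes p38 beta, fell at 8 h (-1.04 ± 0.194). MAPK13, which encodes p38 delta, was higher in Holstein at every hour. It was at 2.97 ± 0.940, 3.06 ± 0.832 and 2.3 ± 0.602 CPM at 0, 2 and 8 h in Holstein and at 0.264 ± 0.292, 0.0796 ± 0.0441 and 0.312 ± 0.320 CPM in Angus. None of the atypical dual-specificity phosphatases, 7 to 8 of 10 of which were tested, was past the threshold in any comparison with edgeR, and 0 to 4 of them had an unadjusted p under 0.05. Over all rows 0.0982% to 4.46% were past it, so a count of 0 among so few genes does not set them apart. Such a p was held by 597 of 20368 to 6697 of 20533 rows, depending on the comparison.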
